A study of Mus musculus with 8 samples.

Results

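The genes described here are 10 that encode subunits of the transcription factor AP-1 or other immediate early proteins: Fos, Fosb, Fosl2, Jun, Junb, Jund, Egr1, Ier2, Atf3 and Klf4. They were taken as a fixed list of symbols, and every array probe whose RefSeq accession maps to one of them is shown, 11 probes of 55681 in all. Their RNA was measured on 1-colour (Cy3) Agilent arrays in tubules of the mesonephros, isolated with a laser from toluidine-blue-stained cryosections. The mesonephros is a transient embryonic kidney, and the study set its tubules in wild-type mouse embryos, called senescent in the labels, against those of p21 knockout embryos, called non-senescent. The wild-type group has 5 arrays and the p21 knockout (p21-/-) group 3, all of strain C57/BL6. p21, encoded by Cdkn1a, is an inhibitor of cyclin-dependent kinases. The labels give no embryonic stage and leave unsaid whether samples are single embryos or pools, so the tests measure only the spread between these samples.

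AP-1 is a dimer of basic leucine zipper proteins: Jun proteins pair with each other or with Fos proteins, and the dimer binds short DNA elements in promoters and enhancers. Immediate early genes are transcribed soon after a stimulus without new protein synthesis, largely through kinase cascades that act on serum response factor, ternary complex factors and CREB, and their products switch on later genes. AP-1 is known to act at many enhancers that open when cultured cells become senescent.

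Values are log2 of the processed spot signal minus the 75th percentile of the same array, so 0 is the level of that percentile and 1 unit is a 2-fold change; they set a probe against itself across arrays and not against other probes. Per array, 82.2% to 89.2% of probes exceeded background clearly, no spot was saturated, and precision is limited by how few arrays there were. The 3 slides each held both groups, and slide 1 had a mean local background of 38.0 to 44.1, against 91.3 to 135 for the other slides. Cdkn1a was not clearly lower where it was labelled absent: its brighter probe averaged 1.49 ± 0.58 (SD, n = 3) in the arrays labelled p21-null and 1.68 ± 0.90 (SD, n = 5) in wild type (limma adjusted p = 0.953), and whether either probe lies in the deleted part was not given. Every direction below thus rests on the label, and the group is named by it. Tubule and duct markers were present, 13 of 15 being well above background on all 8 arrays, but their mean ran from −2.31 to 0.57 in wild type and from −2.05 to −1.22 in the arrays labelled p21-null. In the latter group Emx2 passed background on 2 of 3 arrays and Ret on 0 of 3.

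None of the 10 genes passed the adjusted threshold between the groups, and Jun had the largest difference. Jun, the best-known partner of Fos in AP-1, was 2.80-fold lower in the arrays labelled p21-null, and all 3 of them lay below all 5 wild-type arrays. Its relative Jund was 1.46-fold lower, with 2 of 3 arrays labelled p21-null below all wild-type arrays. The other members had groups that overlapped and differences smaller than the wild-type SD. By the representative probe, the brighter where a gene had more than 1, 7 members were lower and 3 higher, with a median log2 difference of −0.38 against −0.01 over 18172 genes with a symbol, 50.6% of which were lower. That member median moved to −0.12 when wild-type replicate 1 was left out, to −0.19 when replicate 4 of the same group was, to −0.23 when labelled p21-null replicate 1 was, and to −0.09 under the replicate block. With limma, 0 members had an adjusted p under 0.05, as did 0 of all 50056 probes tested (0%), where 4890 (9.77%) had an unadjusted p under 0.05 and 1394 (2.78%) one under 0.01 with a 2-fold or larger change. Of the members 1, Jun, had an unadjusted p under 0.05 against 12.4% of genes with a symbol; that share of 1 in 10 is near the background. All 11 probes were well above background on all 8 arrays, so no member was left out by the filter on dim probes.

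**Figure D1:**
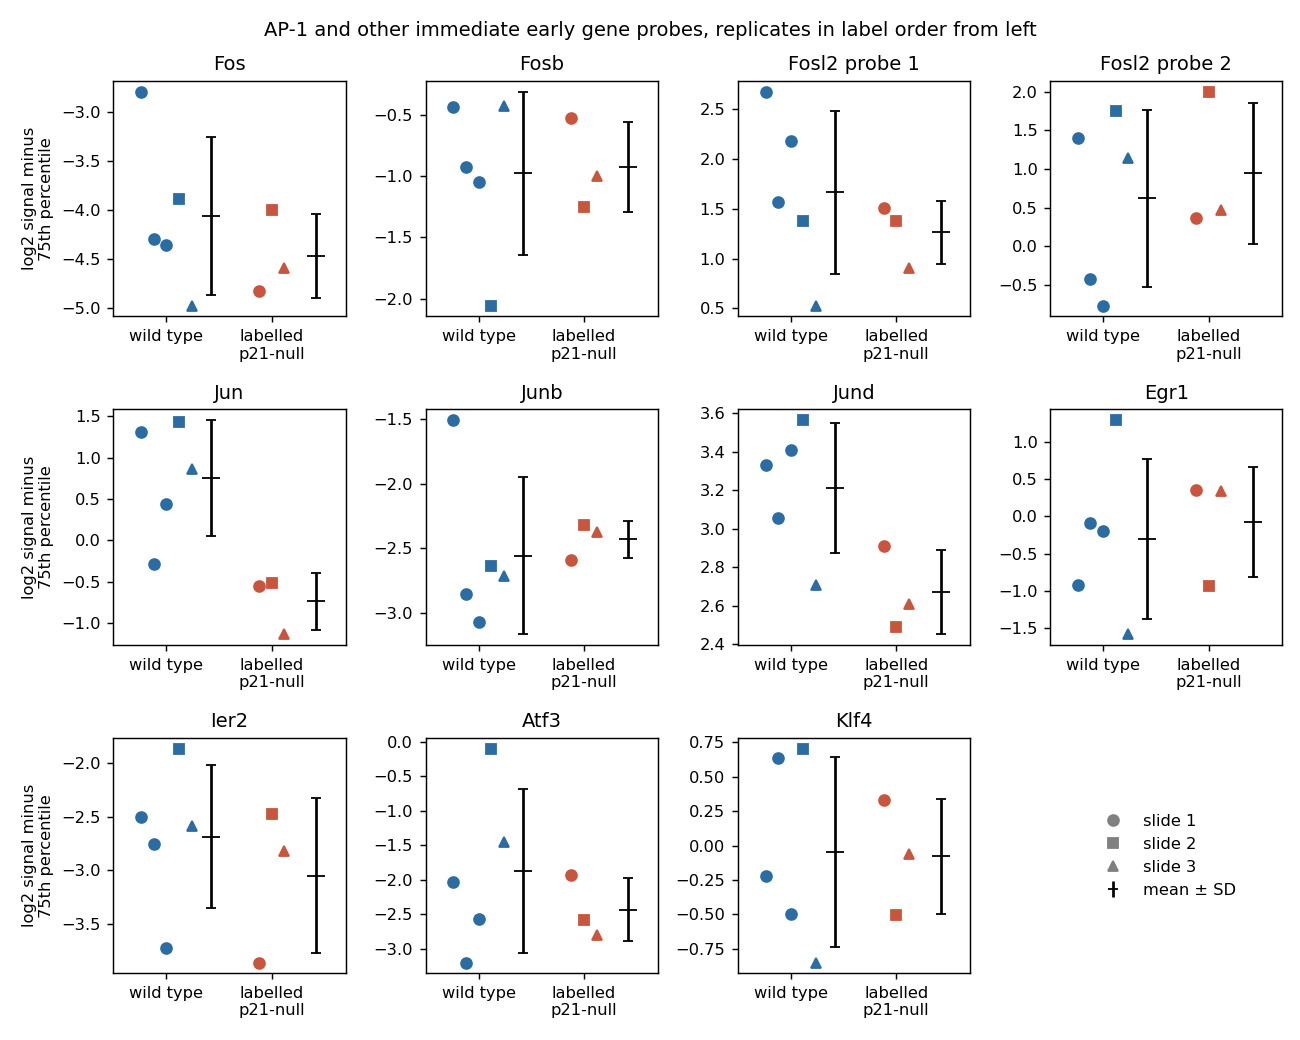
Log2 signal minus the 75th percentile of the array (vertical axes, scaled separately) for the 11 probes in 5 wild-type arrays (blue) and 3 arrays labelled p21-null (red); symbols mark the slide, replicates run in label order from left, and bars are mean ± SD. For Jun the red points, −1.13 to −0.52, all lie below the blue points, −0.29 to 1.43; in the other panels the groups overlap.

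The Jun family is described first, with the promoters of its 3 members and of Fos, because Jun carried the largest difference, Jund the next in the family and Junb none beyond its spread. RefSeq windows of 300 bases, from 250 bases before the annotated gene start to 50 from it (GRCm38.p6), were available for 8 of the 10 genes. They are printed in the direction of transcription, and capitals mark matches on either strand to the following elements. They are the GC box (GGGCGG), the TATA box with the letters TATAAA, the core of the cyclic AMP response element (CRE) with the letters TGACG, and a CRE variant with the letters TGACATCA.
Jun, chr4:95052173-95052472, minus strand: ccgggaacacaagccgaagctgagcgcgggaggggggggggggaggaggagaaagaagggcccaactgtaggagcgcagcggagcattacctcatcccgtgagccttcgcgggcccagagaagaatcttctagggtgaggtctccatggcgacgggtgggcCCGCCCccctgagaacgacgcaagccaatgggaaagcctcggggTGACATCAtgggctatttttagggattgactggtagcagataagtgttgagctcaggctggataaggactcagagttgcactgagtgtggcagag
Jund, chr8:70697489-70697788, plus strand: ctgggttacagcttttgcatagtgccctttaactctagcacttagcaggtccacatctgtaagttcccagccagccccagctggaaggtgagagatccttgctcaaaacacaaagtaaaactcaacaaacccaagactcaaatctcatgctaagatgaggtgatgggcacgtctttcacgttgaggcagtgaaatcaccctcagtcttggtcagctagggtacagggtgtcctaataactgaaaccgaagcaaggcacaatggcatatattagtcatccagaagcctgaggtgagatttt
Junb, chr8:84978699-84978998, minus strand: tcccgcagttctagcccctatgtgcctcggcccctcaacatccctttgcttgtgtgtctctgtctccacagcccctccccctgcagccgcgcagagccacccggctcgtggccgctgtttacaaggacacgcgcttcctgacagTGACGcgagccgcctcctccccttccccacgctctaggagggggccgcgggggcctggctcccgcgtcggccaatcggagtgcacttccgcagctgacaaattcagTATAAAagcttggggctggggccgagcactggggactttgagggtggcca
Fos, chr12:85473640-85473939, plus strand: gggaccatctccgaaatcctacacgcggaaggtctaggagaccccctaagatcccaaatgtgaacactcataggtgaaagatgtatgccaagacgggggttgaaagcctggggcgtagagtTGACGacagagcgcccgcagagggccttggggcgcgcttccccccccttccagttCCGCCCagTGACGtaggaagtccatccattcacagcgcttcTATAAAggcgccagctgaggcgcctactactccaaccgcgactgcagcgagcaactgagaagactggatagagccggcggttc

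The Jun window held a GC box and, at position −45, the CRE variant TGACATCA, which was added to the search after the sequence was seen and occurs in 3.62% of 32851 promoter windows of this length. The Jund window held no match to any element searched. Its GC content was 46.7%, against 58.7% to 74.3% in the other member windows. Whether the annotated Jund start is the one used in these tubules was not tested. TGACG, found in 20.8% of all windows, was in 5 of the 8 member windows, with 2 matches for Fos at −129 and −66 and 1 for Junb at −106. TATAAA, found in 13.6% of windows, was in 2: at −33 for Fos and at position 1 for Junb, where the annotated start coincides with it. The GC box, found in 35.7% of windows, was in 6. The CArG box bound by serum response factor (1.63% of windows), the full CRE (TGACGTCA, 1.79%, which contains TGACG) and the AP-1 site (TGANTCA, 7.81%) had 0 matches in the 8 windows, as had a CArG box with GGAA within 20 bases (0.941%). These matches describe letters in this window and are no evidence of binding, and an element outside the window would not be seen.

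Jun measured 1.31, −0.29, 0.43, 1.43 and 0.87 in the wild-type arrays, in replicate order here and below, and −0.56, −0.52 and −1.13 in those labelled p21-null. Wild-type replicates 1 and 4 were high, wild-type replicate 2 was the lowest of its group, and the groups did not overlap; 2.95% of genes with a symbol had all 3 arrays labelled p21-null below all wild-type arrays. Wild type averaged 0.75 ± 0.70 (SD, n = 5) and the group labelled p21-null −0.74 ± 0.35 (SD, n = 3), which gives a log2 difference of −1.49 (SE 0.44) with a 95% interval of −2.48 to −0.49 (limma unadjusted p = 0.00810, adjusted p = 0.342). The two-sided exact permutation test over 56 splits of the arrays gave p = 0.0357, the smallest possible being 0.0179. Within slides 1, 2 and 3 the difference was −1.04, −1.95 and −2.0. Leaving out 1 array at a time gave −1.75 to −1.29, and with the replicate block it was −1.22 (limma unadjusted p = 0.0538).

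Marker genes of other cell types differed between the same arrays. The mean of 13 neural markers was −0.34 to 1.63 in wild type and −1.50 to −0.49 in the arrays labelled p21-null, and so did not overlap either. Of its 13 genes 12 were well above background on all arrays. An unadjusted limma p under 0.05 was found for 4, all lower, against 4.63% of genes with a symbol, and for 3 to 6 with 1 array left out. Lower calls over all genes with a symbol then ran from 395 to 1029, against 842 with all arrays. Within slides 1, 2 and 3 the neural mean differed by −1.69, −2.10 and −2.02. The order of the wild-type arrays was not the same: wild-type replicate 1, the second highest for Jun, had the lowest neural mean of its group. The mean of the stroma and muscle markers was 0.83 to 2.14 in wild type and 0.24 to 0.93 in the other group. Of these 13 genes 1 had an unadjusted p under 0.05, lower, against 4.63% of genes with a symbol. The ranges do not cover the same genes. Myh11 had a value on only 1 wild-type array, replicate 5, so the remaining wild-type means leave it out. It measured −2.24 to −1.29 in the other group and so lowered the means of that group. Higher in that group, the mean of 15 liver markers was 3.07 to 4.44 against −0.48 to 3.20, that of 13 erythroid markers 3.43 to 4.27 against 1.12 to 3.37, and that of 14 macrophage and myeloid markers 0.91 to 1.77 against −0.44 to 1.15, with 14, 9 and 9 genes at an unadjusted p under 0.05, all higher, against 7.74% of genes with a symbol. Without labelled p21-null replicate 1 those counts were 7, 8 and 4, and without labelled p21-null replicate 3 they were 8, 8 and 3. Calls over all genes with a symbol, in either direction, fell as well. They numbered 2248 of 18172 with all arrays, 1367 without labelled p21-null replicate 1 and 1060 without its replicate 3. Of the erythroid markers 11 were higher, but the globin genes Hba-a1, Hbb-bt and Hbb-y differed by only 0.17, −0.04 and −0.05. The remaining globin gene of the list, Hba-x, differed by 0.75 (SE 0.61, limma unadjusted p = 0.248). Of the macrophage and myeloid markers 12 were higher, but Csf1r, Itgam and Ptprc differed by −0.26, −0.02 and 0.21. The Itgam value came from the brightest of its 3 probes, which read 6.80 to 7.70 over the 8 arrays. Whether that signal is Itgam RNA alone was not tested. The mean of 10 endothelial markers was −1.47 to 0.48 in wild type and −1.03 to 0.19 in the other group, with 0 genes at that p. The part of these cell types in the Jun difference was not tested. In such bulk samples fewer cells of a type and less RNA per cell cannot be told apart.

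**Figure D2:**
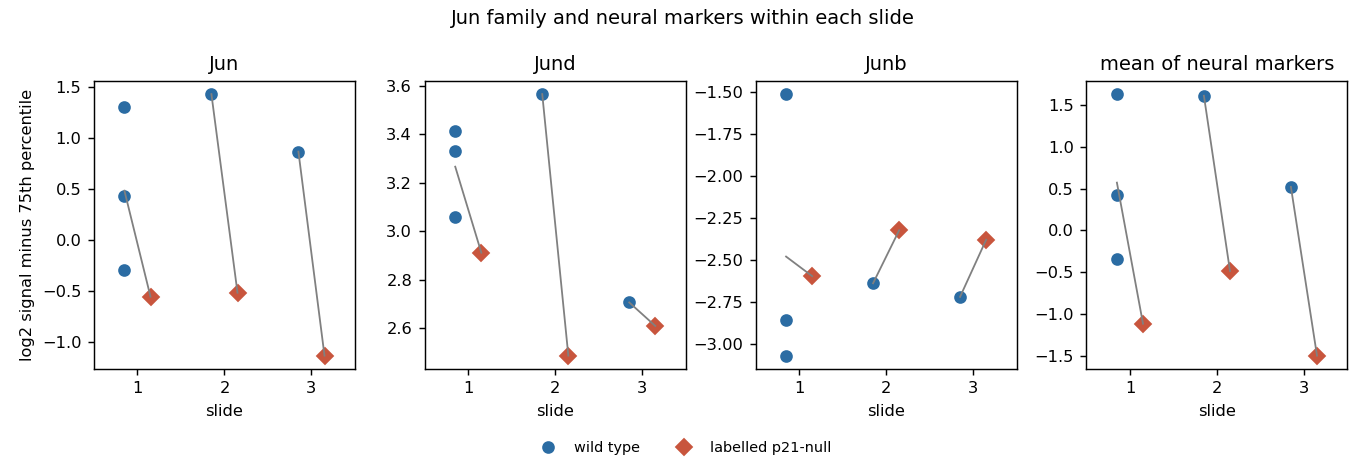
Log2 signal minus the 75th percentile (vertical axes, scaled separately) for Jun, Jund, Junb and the mean of 13 neural markers on each of the 3 slides (horizontal axis), with wild-type arrays as circles, arrays labelled p21-null as diamonds and a line joining the group means of a slide. On every slide the arrays labelled p21-null lie below wild type for Jun (−2.0 to −1.04), for the neural mean (−2.10 to −1.69) and for Jund (−1.08 to −0.0971), while Junb has no shared direction.

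Jund, the Jun family member that is least dependent on stimulation in most cells, measured 3.33, 3.06, 3.41, 3.56 and 2.71 in wild type and 2.91, 2.49 and 2.61 in the arrays labelled p21-null. The highest array was wild-type replicate 4 and the lowest labelled p21-null replicate 2, and the overlap came from wild-type replicate 5. Wild type averaged 3.21 ± 0.34 (SD, n = 5) and the group labelled p21-null 2.67 ± 0.22 (SD, n = 3), which gives a log2 difference of −0.54 (SE 0.31, limma unadjusted p = 0.110, adjusted p = 0.632), and the two-sided exact permutation test gave p = 0.0536. The difference was −0.35, −1.08 and −0.0971 within slides 1, 2 and 3. Its wild-type SD was larger than that of 17.6% of genes with a symbol, the lowest place among the members.

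Junb, which is induced by growth factors and cytokines, measured −1.51, −2.85, −3.07, −2.64 and −2.72 in wild type and −2.59, −2.32 and −2.38 in the arrays labelled p21-null. Wild-type replicate 1 stood far above the other 4 wild-type arrays, all of which lay below every array labelled p21-null. The log2 difference was 0.13 (SE 0.39, limma adjusted p = 0.957), 0.39 without wild-type replicate 1 and, with replicate 3 of that group left out instead, −0.000988. Its 95% interval, −0.75 to 1.01, leaves room for a change of about 2-fold upward, so a lack of change was not shown.

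The Fos family had no member with a difference beyond its spread. Fos, the founding member and the classic immediate early gene, was read by 1 probe printed in 10 spots on each array. It measured −2.79, −4.30, −4.36, −3.89 and −4.98 in wild type and −4.83, −4.0 and −4.59 in the arrays labelled p21-null. The SD among the spots of 1 array was 0.122 to 0.291, against 0.81 among the 5 wild-type arrays, so the spread between arrays was larger than that between spots. All 10 spots were well above background on every array, although the median processed signal was only 79.0 to 231; 1 spot on labelled p21-null replicate 2 was an outlier and was left out. Wild-type replicate 1 was high and wild-type replicate 5 the lowest of all 8. The log2 difference was −0.41 (SE 0.49, limma adjusted p = 0.860) and −0.0910 without wild-type replicate 1.

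Fosb, a close relative of Fos, measured −0.44, −0.93, −1.05, −2.06 and −0.43 in wild type and −0.53, −1.25 and −1.0 in the arrays labelled p21-null. Wild-type replicate 4 was the lowest, the array on which 6 other members were at their highest. The groups overlapped throughout, with a log2 difference of 0.05 and a standard error of 0.43 (limma adjusted p = 0.985), which was −0.22 without wild-type replicate 4.

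Fosl2, which encodes Fra-2, was read by 2 probes that did not follow each other. The brighter, probe 1, measured 2.68, 1.57, 2.18, 1.38 and 0.53 in wild type and 1.51, 1.38 and 0.91 in the arrays labelled p21-null. Probe 2 measured 1.40, −0.43, −0.77, 1.75 and 1.14 in wild type and 0.37, 2.0 and 0.47 in the other group. Across the 8 arrays their Pearson r was −0.18 (exact permutation p = 0.667) and Spearman's rho −0.33 (exact permutation p = 0.428); without the 2 arrays farthest from the median of probe 1, r was −0.54. The log2 differences were −0.40 and 0.32, with limma standard errors of 0.48 and 0.69, so the files give no settled direction for Fosl2. Both probes carry the same RefSeq accession, and the sources used here do not say where in the transcript either lies.

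**Figure D3:**
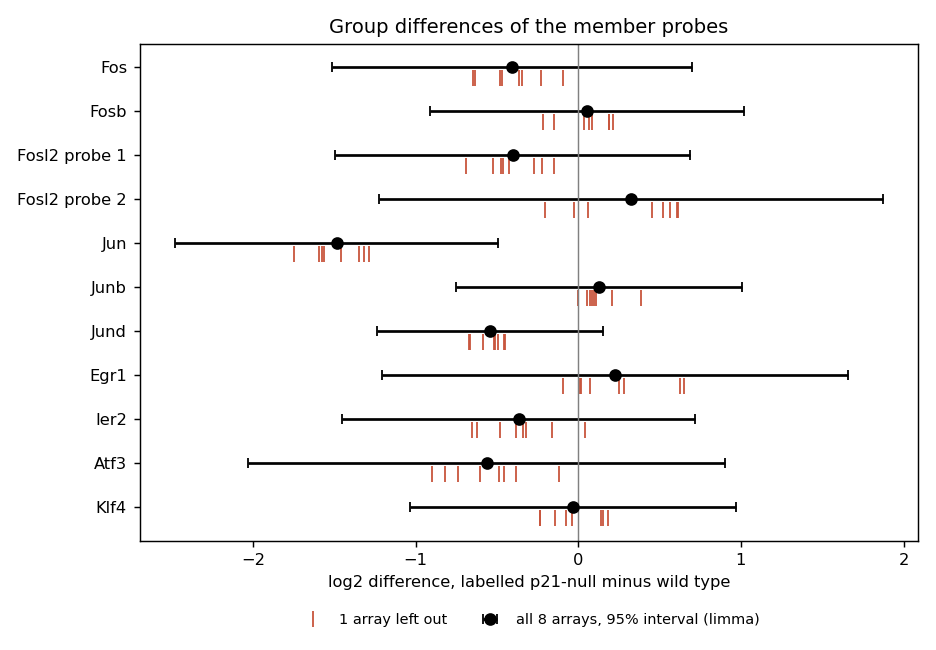
Log2 difference, labelled p21-null minus wild type (horizontal axis), for each of the 11 probes, with the 95% interval from limma (black, n = 5 and 3) and the values with 1 array left out (red ticks). Only the interval of Jun, −2.48 to −0.49, does not include 0.

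Atf3, a stress-induced factor that forms dimers with Jun proteins, varied most within wild type. It measured −2.04, −3.21, −2.57, −0.10 and −1.45 in wild type and −1.93, −2.59 and −2.80 in the arrays labelled p21-null. Wild-type replicate 4 was the highest and wild-type replicate 2 the lowest of all 8, an 8.60-fold range within wild type that held the whole other group. The log2 difference of −0.56 (SE 0.65, limma adjusted p = 0.852) was −0.12 without wild-type replicate 4, and it was 0.68, −2.49 and −1.35 within slides 1, 2 and 3.

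The zinc finger genes Egr1 and Klf4 did not differ between groups beyond their spread. Egr1, an early growth response factor that binds GC-rich promoters, measured −0.93, −0.09, −0.20, 1.29 and −1.58 in wild type and 0.36, −0.93 and 0.35 in the arrays labelled p21-null. Klf4, a regulator of epithelial differentiation, measured −0.22, 0.64, −0.50, 0.70 and −0.85 in wild type and 0.33, −0.50 and −0.06 in the other group. For both genes wild-type replicate 4 was the highest array and wild-type replicate 5 the lowest, so the wild-type range held the other group. The log2 differences were 0.23 for Egr1 and −0.03 for Klf4, with limma standard errors of 0.63 and 0.44 (adjusted p = 0.952 and 0.990).

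Ier2, an early response gene for a small nuclear protein, measured −2.50, −2.75, −3.72, −1.87 and −2.58 in wild type and −3.86, −2.47 and −2.82 in the arrays labelled p21-null. Labelled p21-null replicate 1 and wild-type replicate 3, both on slide 1, were the lowest arrays, and wild-type replicate 4 was the highest. The log2 difference was −0.37 (SE 0.48, limma adjusted p = 0.878) and 0.04 without labelled p21-null replicate 1.

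The members did not form a single block across arrays. By the representative probe every member had its highest value on a wild-type array, while Fosl2 probe 2 was highest on labelled p21-null replicate 2. By that probe there were 6 on wild-type replicate 4 (Jun, Jund, Egr1, Ier2, Atf3 and Klf4), 3 on replicate 1 (Fos, Fosl2 and Junb) and Fosb on replicate 5. Wild-type replicate 5 was the lowest array for 4 members, Fos, Fosl2, Egr1 and Klf4. The mean of the 10 members was −0.31, −0.92, −0.94, −0.22 and −1.05 in wild type and −0.92, −1.07 and −1.09 in the arrays labelled p21-null, so that wild-type replicates 1 and 4 stood above the other 6 arrays, which lay between −1.09 and −0.92. The wild-type SD exceeded that of the other group for 9 members, Ier2 being the exception, against 67.5% of genes with a symbol. On the array where Fos, Fosl2 and Junb were highest, wild-type replicate 1, the mean of the tubule and duct markers was also the highest, 0.57 against −2.31 to −0.43 on the other 7 arrays. Wild-type replicate 4, where 6 members were highest, came next at −0.43. The neural mean did not follow the members: it was 1.61 on wild-type replicate 4 but −0.34, the lowest of wild type, on replicate 1. Its highest value, 1.63, was on wild-type replicate 3, where the member mean was −0.94. The part of these cell types in the member values was not tested.

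Of 45 pairs of members, 30 had a positive Pearson r across the 8 arrays, with a median of 0.11, and 0 passed Benjamini-Hochberg adjustment of the exact permutation p (smallest adjusted p = 0.489). The highest was Egr1 with Klf4, at r = 0.82 (exact permutation p = 0.0133) and rho = 0.90 (exact permutation p = 0.00456, adjusted p = 0.205), and r = 0.55 without the 2 arrays farthest from the median of Egr1. Fos with Fosl2 probe 1 and Fos with Junb had r of 0.76 and 0.75 (exact permutation p = 0.0308 and 0.0540) but 0.05 and 0.04 without wild-type replicates 1 and 5, so both rest on those arrays; rho was 0.52 and 0.40 (exact permutation p = 0.197 and 0.327). Jun followed Jund (r = 0.71, exact permutation p = 0.0578; rho = 0.71, p = 0.0576) and Atf3 (r = 0.70, exact permutation p = 0.0392; rho = 0.62, p = 0.115), and these were 0.41 and 0.54 without wild-type replicates 1 and 4. After each group's mean was subtracted, r was 0.34 for Jun with Jund and 0.81 for Jun with Atf3. Fosb had a negative r with 7 of the other 9 members, the lowest being −0.67 with Egr1, which was 0.09 without wild-type replicates 4 and 5.

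**Figure D4:**
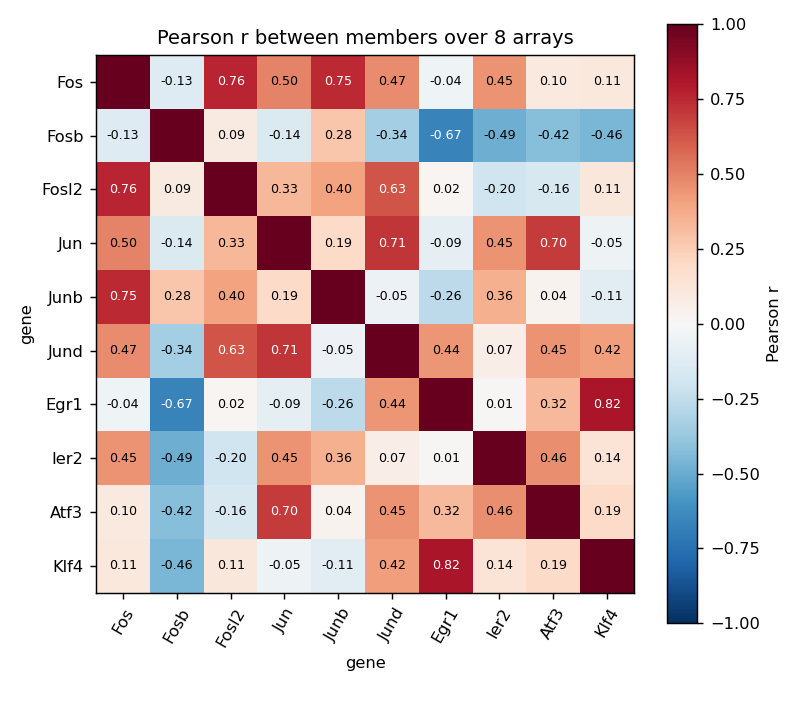
Pearson r between the representative probes of the 10 members over the 8 arrays (both axes list the genes; red is positive, blue negative). Egr1 with Klf4 reaches 0.82 and Fosb with Egr1 −0.67; none of the 45 pairs passed adjustment.

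Genes with an array pattern most like that of Fos, among 18038 compared, were Morc2b, Sez6l, Rhox4a, Gsta2, Nr1d2 and Wfdc15b, with Pearson r of 0.93 to 0.99 over 8 arrays. The pattern of the member mean was met most closely by Il34, Ap1s2, Fstl3, Tnfrsf12a, Pgpep1 and Nlrc5, with r of 0.95 to 0.99. Il34, a ligand of the macrophage growth factor receptor Csf1r, measured 1.42 and 1.58 in wild-type replicates 1 and 4 and between −2.37 and −1.59 in the other 6 arrays. All 12 genes are the extremes of a search over all genes and share the same 8 arrays.

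Other immediate early genes were spread to both sides. Of 36 listed, 35 passed the filter on dim probes; 20 were lower and 15 higher in the arrays labelled p21-null, the median log2 difference was −0.14, and 0 passed the adjusted threshold. At an unadjusted limma p under 0.05 there were 4 lower and 2 higher, against 4.63% and 7.74% of genes with a symbol. With the median of each array as the scale 19 were lower, and 3 of these had an unadjusted p under 0.05. With normexp background correction 6 did. Over all genes with a symbol these settings had 677 and 971 lower calls, against 842 in the main fit. With 1 array left out the median ran from −0.36 (without wild-type replicate 3) to −0.0336 (without wild-type replicate 2). The lower calls ran from 2 (without labelled p21-null replicate 3) to 7 (without wild-type replicate 3). All genes with a symbol had 395 and 787 lower calls in those 2 settings. Array weights gave a median of −0.00397, with 8 lower and 5 higher calls. That setting called 4195 of 18172 genes with a symbol, 1710 of them lower.

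The 4 on the lower side were Sik1, Ccn1, Rhob and Trib1. For each of them all 3 arrays labelled p21-null lay below all wild-type arrays. That is 4 of the 35 measured, against 2.95% of genes with a symbol. The 4 were picked by a small p between the same arrays, so their lack of overlap is no separate result. Sik1, a salt-inducible kinase that is a target of CREB, measured 1.39, 0.79, 0.44, 1.33 and 0.64 in wild type and −1.12, −0.06 and −1.14 in the arrays labelled p21-null. Its log2 difference was −1.69 (SE 0.39, limma unadjusted p = 0.00176, adjusted p = 0.305), and it was −1.99, −1.39 and −1.79 within slides 1, 2 and 3. Ccn1, a matrix-associated growth-factor-inducible protein, was 3.37-fold lower, at −1.12 ± 0.37 (SD, n = 3) against 0.63 ± 1.13 (SD, n = 5). Rhob, a small GTPase, was 1.93-fold lower and Trib1, a pseudokinase, 2.11-fold lower (limma adjusted p of 0.391 and 0.503); without labelled p21-null replicate 3 the unadjusted limma p rose to 0.0699 for Ccn1, 0.0531 for Rhob and 0.159 for Trib1.

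On the higher side, Ppp1r15a, which encodes the phosphatase subunit GADD34, measured 0.57, −0.46, 0.12, −0.13 and 0.61 in wild type and 1.98, 1.01 and 2.23 in the arrays labelled p21-null. Those groups did not overlap, against 5.47% of genes with a symbol with every array labelled p21-null above all wild-type arrays. The log2 difference was 1.60 (SE 0.40, limma unadjusted p = 0.00315, adjusted p = 0.310). Btg2, an antiproliferative gene, was 2.29-fold higher with overlapping groups (limma adjusted p = 0.503), and its unadjusted limma p was 0.157 without labelled p21-null replicate 3. Socs3 and Egr3 had log2 differences of 0.52 and 1.16 and no unadjusted p under 0.05.

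**Figure D5:**
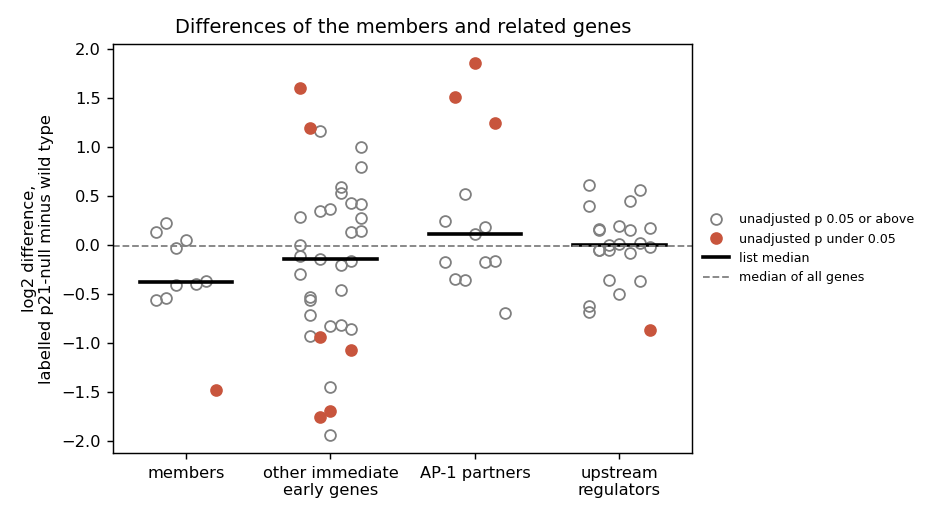
Log2 difference, labelled p21-null minus wild type (vertical axis), of each measured gene among the 10 members, 35 other immediate early genes, 13 AP-1 partners and 23 upstream regulators; filled points have an unadjusted limma p under 0.05, bars are list medians and the dashed line is the median of all genes, −0.01. Filled points number 1 of 10, 6 of 35, 3 of 13 and 1 of 23, against 12.4% of genes with a symbol, and none passed the adjusted threshold.

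The other basic leucine zipper genes that can pair with Fos or Jun proteins, or share their partners, had 7 of 13 measured genes higher and 6 lower, a median of 0.11. Normexp background correction, the deposited log2 table and array weights turned this to 6 higher and 7 lower, as did leaving out labelled p21-null replicate 2. Of the 11 well above background on all 8 arrays, 5 were higher and 6 lower, with a median of −0.16. Without wild-type replicate 1 there were 5 higher and 8 lower, with a median of −0.11. In all, 3 had an unadjusted limma p under 0.05, all higher, against 7.74% of genes with a symbol, and 0 passed the adjusted threshold. Mafk, a small Maf protein without an activation domain, measured −0.10, −1.22, −1.37, −0.50 and −0.90 in wild type and 0.70, 0.79 and 1.64 in the arrays labelled p21-null, a log2 difference of 1.86 (SE 0.40, limma unadjusted p = 0.00116, adjusted p = 0.298). Nfe2l2, which encodes NRF2, a small Maf partner and regulator of antioxidant genes, measured 0.02, 0.00498, 0.07, 0.28 and −0.29 in wild type and 1.39, 0.84 and 1.54 in the other group. It was 2.36-fold higher (limma unadjusted p = 0.00233, adjusted p = 0.306). The groups did not overlap for either gene, against 5.47% of genes with a symbol with all 3 arrays labelled p21-null above all wild-type arrays. Batf was well above background on 3 of 5 wild-type arrays, so its log2 difference of 1.5 (limma adjusted p = 0.488) rests in part on values at background; it was 0.67 with normexp, and the unadjusted limma p was under 0.05 in 13 of 20 settings and 0.145 without labelled p21-null replicate 1. Mafg differed by 0.51. On the other side Maf, Batf2, Maff and Jdp2 had log2 differences of −0.70 to −0.16, and the sign of the last 3 turned when 1 array was left out. The erythroid and macrophage marker means given above were higher on the same arrays as Mafk and Nfe2l2, and their part in these differences was not tested.

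The kinases and transcription factors upstream of immediate early genes went to both sides. Of 23 measured, 12 were higher and 11 lower, with a median of 0.00303; with the median of each array as the scale 16 were higher and 7 lower. Of the 23, 1 had an unadjusted limma p under 0.05, lower, against 4.63% of genes with a symbol, so that count is near the background. This was Mapk7, which encodes the kinase ERK5. It measured −0.13, 0.51, 0.80, 0.66 and 0.86 in wild type and −0.28, 0.28 and −0.97 in the arrays labelled p21-null. Its groups overlapped through wild-type replicate 1, and the log2 difference was −0.87 (SE 0.38, limma adjusted p = 0.510). Without labelled p21-null replicate 3 it was −0.54 (limma unadjusted p = 0.225), and the unadjusted limma p was under 0.05 in 11 of 21 settings. Mapk8, the kinase JNK1 that phosphorylates Jun, had a log2 difference of −0.68, Mrtfb −0.50 and Mapk3, which encodes ERK1, −0.37, while Map2k2, Mapk14, Rps6ka1 and Braf lay between 0.40 and 0.61; none of these had an unadjusted limma p under 0.05. Srf, which encodes serum response factor, differed by −0.05 (SE 0.41) and was picked after its value was seen. A list of 10 heat shock genes, of which 9 were measured, had a mean of 2.04 to 2.66 in wild type and 2.30 to 2.63 in the arrays labelled p21-null, with 0 genes at an unadjusted limma p under 0.05.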

How the data were processed

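Per the file headers, the scanner files deposited by the authors were written by Agilent Feature Extraction version 10.7.3.1, with a linear intensity for each spot, already corrected for background by that software and not normalized between arrays. The authors' deposited series table holds log2 values whose columns share their quantiles; limma is named in the submitters' processing notes, with no background correction given in the sources used here. From the intensity, log2 minus each array's 75th percentile over 59305 non-control spots was taken, dropping outlier spots and averaging repeated spots of a probe. Probes well above background on at least 3 of 8 arrays were kept. RefSeq accessions gave 26056 of 55681 probes a symbol (GRCm38.p6, used for names and promoter windows). Groups were compared per probe with limma 3.58.1 in R 4.3.3 without covariates, Benjamini-Hochberg adjusted over all 50056 probes tested, with thresholds of 0.05. A gene was represented by its probe with the highest mean. On simulated data for this comparison with 49664 probes, limma recovered 0%, 28%, 44% and 66% of 50 probes changed by 1, 2, 3 and 4 on the log2 scale, with 8 false calls. Exact permutation tests used all 56 splits. The members and lists were chosen with earlier results of these data known. Named genes were all members, the 4 of smallest p in each direction of 3 related lists, and the 6 most like Fos or the member mean; Srf was named outside that rule. Alternatives were other scalings, normexp with an offset of 50 on median intensities, other filters, slide or replicate number as a block, other moderation and weights, the deposited table, other probe rules, and each array left out.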

Additional observations from a re-analysis of the deposited data

Results flagged for a closer look

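Junb on wild-type replicate 1 stood at −1.51, far above the other 4 wild-type arrays at −3.07 to −2.64; its gap to the next array was 0.723 of the group's range, where 0.71 is Dixon's 95% critical value for 5 samples. It was the 1 case past that value among 23 wild-type groups tested (11 probes and 12 list means), and chance alone gives about 1 such case in 20.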

How the results depend on the processing

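Over 20 alternatives Jun kept its direction, with log2 differences of −1.57 to −1.22 under other processing and −1.75 to −1.29 with 1 array left out; its unadjusted limma p ran from 0.00169 to 0.0538 and its adjusted p from 0.0814 to 0.950. Fos, Fosl2 probe 1 and Jund also kept theirs, with −0.65 to −0.09, −0.69 to −0.15 and −0.67 to −0.45 when 1 array was left out. The replicate block turned Fosb to −0.12 and Atf3 to 0.17, array weights turned Fosb to −0.11, and Klf4 turned to 0.0284 with the median of each array and to 0.0341 with slide as a fixed block. With 1 array left out the differences ran from −0.22 to 0.22 for Fosb, −0.20 to 0.61 for Fosl2 probe 2, −0.000988 to 0.39 for Junb, −0.0949 to 0.65 for Egr1, −0.65 to 0.0386 for Ier2 and −0.24 to 0.18 for Klf4, so each of these changed sign; the causes were not tested. The count of members lower was 6 to 8 throughout, and their median difference ran from −0.46 to −0.12 with 1 array left out and from −0.39 to −0.09 under other processing. Members at an unadjusted limma p under 0.05 numbered 0 with the replicate block and 2 with trend and robust moderation, which added Jund. With 1 array left out the count was 1. Of 18172 genes with a symbol, 2095 were called with the replicate block and 2570 with trend and robust moderation. The main fit called 2248, and fits with 1 array left out 1060 to 2550. The member counts are thus near the background. Probes past the adjusted threshold numbered 3 with normexp, 43 with array weights, which gave labelled p21-null replicate 3 a weight of 4.15, and 0 to 1 with 1 array left out, the 1 being without wild-type replicate 4. Probes with a 2-fold or larger difference and an unadjusted p below 0.01 numbered 1394, 3557 with array weights and 456 to 1772 with 1 array left out; the lowest came without replicate 3 of the group labelled p21-null, and 628 without its replicate 1.

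Replicate numbers are shared by the groups, but same-numbered arrays did not deviate together (r = 0.07, −0.07 and −0.08 for numbers 1, 2 and 3). The numbers were therefore not used as a pairing in the main fit. A low r cannot exclude one, since wild-type arrays that shared slide 1 with labelled p21-null replicate 1 also had r of only 0.00286 to 0.0786. The replicate block gave 1279 probes at the looser threshold. For arrays on slide 2 and on slide 3, which held 1 of each group, r was 0.13 and 0.22. Limits are the 3 arrays labelled p21-null, probes of unknown position in each transcript, and the dim signal of Fos.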
